A study of Rattus norvegicus with 9 samples.

Results

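Fatty acid oxidation and peroxisome genes were followed as a group of 35 genes, out of 20442 genes in the expression table of rat bone marrow-derived dendritic cells. They were taken by their symbols. Of the 35, 18 encode the mitochondrial pathway, from the carnitine shuttle that carries fatty acids into the organelle to the thiolases that end each cycle. A further 7 encode peroxisomal enzymes and transport, and 10 are peroxins, the proteins that build peroxisomes and import their contents. All 35 were present in the table and 34 passed the filter on low values (at least 1 FPKM in at least 3 of the 9 libraries, which kept 11141 genes in all). FPKM is fragments per kilobase of gene and scaled to the fragments of the library, so its levels can be compared between genes. The exception was Ehhadh, the L-bifunctional enzyme of peroxisomes, whose highest value in any library was 0.411 FPKM, from 5 to 41 reads per library.

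Mitochondrial beta-oxidation shortens fatty acids by repeated rounds of oxidation, hydration, oxidation and cleavage, and passes the electrons to the respiratory chain. Peroxisomes run a parallel pathway for very long and branched fatty acids, in which the oxidation that opens each round yields hydrogen peroxide instead, and catalase removes it. In dendritic cells and macrophages, activation by lipopolysaccharide (LPS, the bacterial endotoxin sensed by Tlr4) is known for a shift of energy metabolism towards glycolysis.

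RNA was sequenced from 9 cultures of wild-type primary rat cells grown from bone marrow in 10% serum with GM-CSF and IL-4 at 20 ng/mL each. The 3 Control cultures are labelled as untreated, although the treatment protocol entered for all 9 samples is the same and names LPS. The 3 LPS cultures received 1 µg/mL LPS, and the 3 LPS+EVs cultures received LPS together with extracellular vesicles (EVs) which the series title derives from ASCs. Treatment lasted 24 h, and the labels add 50 ng/mL of an agent that they do not name, which may be the EVs or something given with LPS. If all treated cultures received it, that agent and LPS cannot be told apart here. Nothing says that cultures of a group came from separate animals, so p-values measure only the spread between these cultures.

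Recovered read totals were 32148519 to 39407116 per library, a 1.23-fold range, and 9846 to 10821 genes reached 1 FPKM. Libraries of the same number deviated together across groups, and those numbered 2 stood apart from the others in each group, and calls that change without 1 of them are given beside the result. Of 13 dendritic cell markers, Flt3, Xcr1 and Clec9a were under 1 FPKM in every library, while Itgax lay at 29.8 to 52.0 FPKM and Cd74 at 939 to 6137 FPKM. Of 14 macrophage and monocyte markers, Cx3cr1 was under 1 FPKM in every library, while Cd68 lay at 403 to 674 FPKM and Csf1r at 90.4 to 180.2 FPKM. Adgre1 lay at 5.01 to 8.26 FPKM in Control, 3.59 to 44.5 in LPS and 5.04 to 48.3 in LPS+EVs. The cultures thus held RNA of macrophage markers beside dendritic ones, and bulk samples do not show whether the same cells carry both. All 12 proliferation genes were lower in LPS than in Control (summed FPKM 567 to 631 in Control, 70.5 to 121.9 in LPS and 66.9 to 80.7 in LPS+EVs), and of 13 tested macrophage and monocyte markers 9 were lower and 2 higher (summed FPKM 7124 to 9015 in Control, 3723 to 7162 in LPS). Among all tested genes 28.7% were lower and 12.3% higher in this comparison. Of 10 tested dendritic cell markers 2 were lower (20.0%), a share under that of all genes. Of 6 tested markers of neutrophils and their precursors 3 were lower and 1 higher (summed FPKM 34.1 to 271 in Control, 99.6 to 244 in LPS and 118 to 271 in LPS+EVs), with Mpo, Elane, Prtn3 and Ltf under 1 FPKM in every library. Of 5 tested erythroid and megakaryocyte markers 2 were higher and 2 lower (540 to 1508, 604 to 1829 and 610 to 1395 summed FPKM), with Alas2, Epor and Gp9 under 1 FPKM throughout. Of 10 tested stromal and adipose-derived markers 1 was higher and 1 lower (186 to 521, 135 to 752 and 177 to 880 summed FPKM). Each is 10.0% of the list, under the shares of all genes. Of 2 tested T and NK cell markers 1 was lower, and their list summed to at most 8.08 FPKM. The markers of B cells and mast cells that the table holds were under 1 FPKM in every library. In LPS+EVs against LPS limma called no marker of these lists. The part of these marker differences in the results that follow was not tested, and fewer cells of a type and less RNA per cell cannot be told apart in bulk samples.

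The comparison of LPS with Control asks how the oxidation of fatty acids and the peroxisomal genes stood after endotoxin. Of 18 mitochondrial genes, 8 fell and none rose, led by Hadh (3.87-fold lower), Echs1 (2.08-fold), Decr1 (2.08-fold) and Acadm (1.93-fold). Of 6 tested peroxisomal enzyme and transport genes, 3 fell (Hsd17b4, Scp2 and Acaa1a) and catalase (Cat) rose 1.72-fold. Among 10 peroxins, Pex3 and Pex10 rose 1.72-fold and 1.81-fold, Pex7 fell to 0.288 of its Control level, and 7 were not called. These folds are ratios of mean FPKM, log2 changes are on the scale of log2(FPKM + 1), which understates the change of low genes, and a gene is called where its adjusted p in limma is under 0.05.

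Among all 11141 genes, 28.7% fell and 12.3% rose in this comparison. The share that fell was 44.4% for the mitochondrial genes, 50.0% for the peroxisomal enzymes, which is 3 genes, and 10.0% for the peroxins. These shares come from the fit without a block for library number. With libraries blocked by number no member lost its call and Cpt2 and Etfb were also called lower, where 35.5% of all genes fell and 17.2% rose. The median log2 change was -0.45 over the mitochondrial genes, -0.36 over the peroxisomal enzymes and 0.07 over the peroxins, beside -0.19 over all tested genes. Median-of-ratios scaling of the libraries removes such a general shift by construction (median of all genes -0.0032), so it does not show whether the shift is real. Under it 17.0% of all genes rose (1893) and 20.9% fell (2332) in place of 1368 and 3201. With that scaling 5 mitochondrial genes (Hadh, Echs1, Acadm, Decr1 and Etfa), 1 peroxisomal enzyme (Hsd17b4) and 1 peroxin (Pex7) were still called lower, Cat, Pex3 and Pex10 were still called higher, and the medians became -0.24, -0.16 and 0.27.

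**Figure D1:**
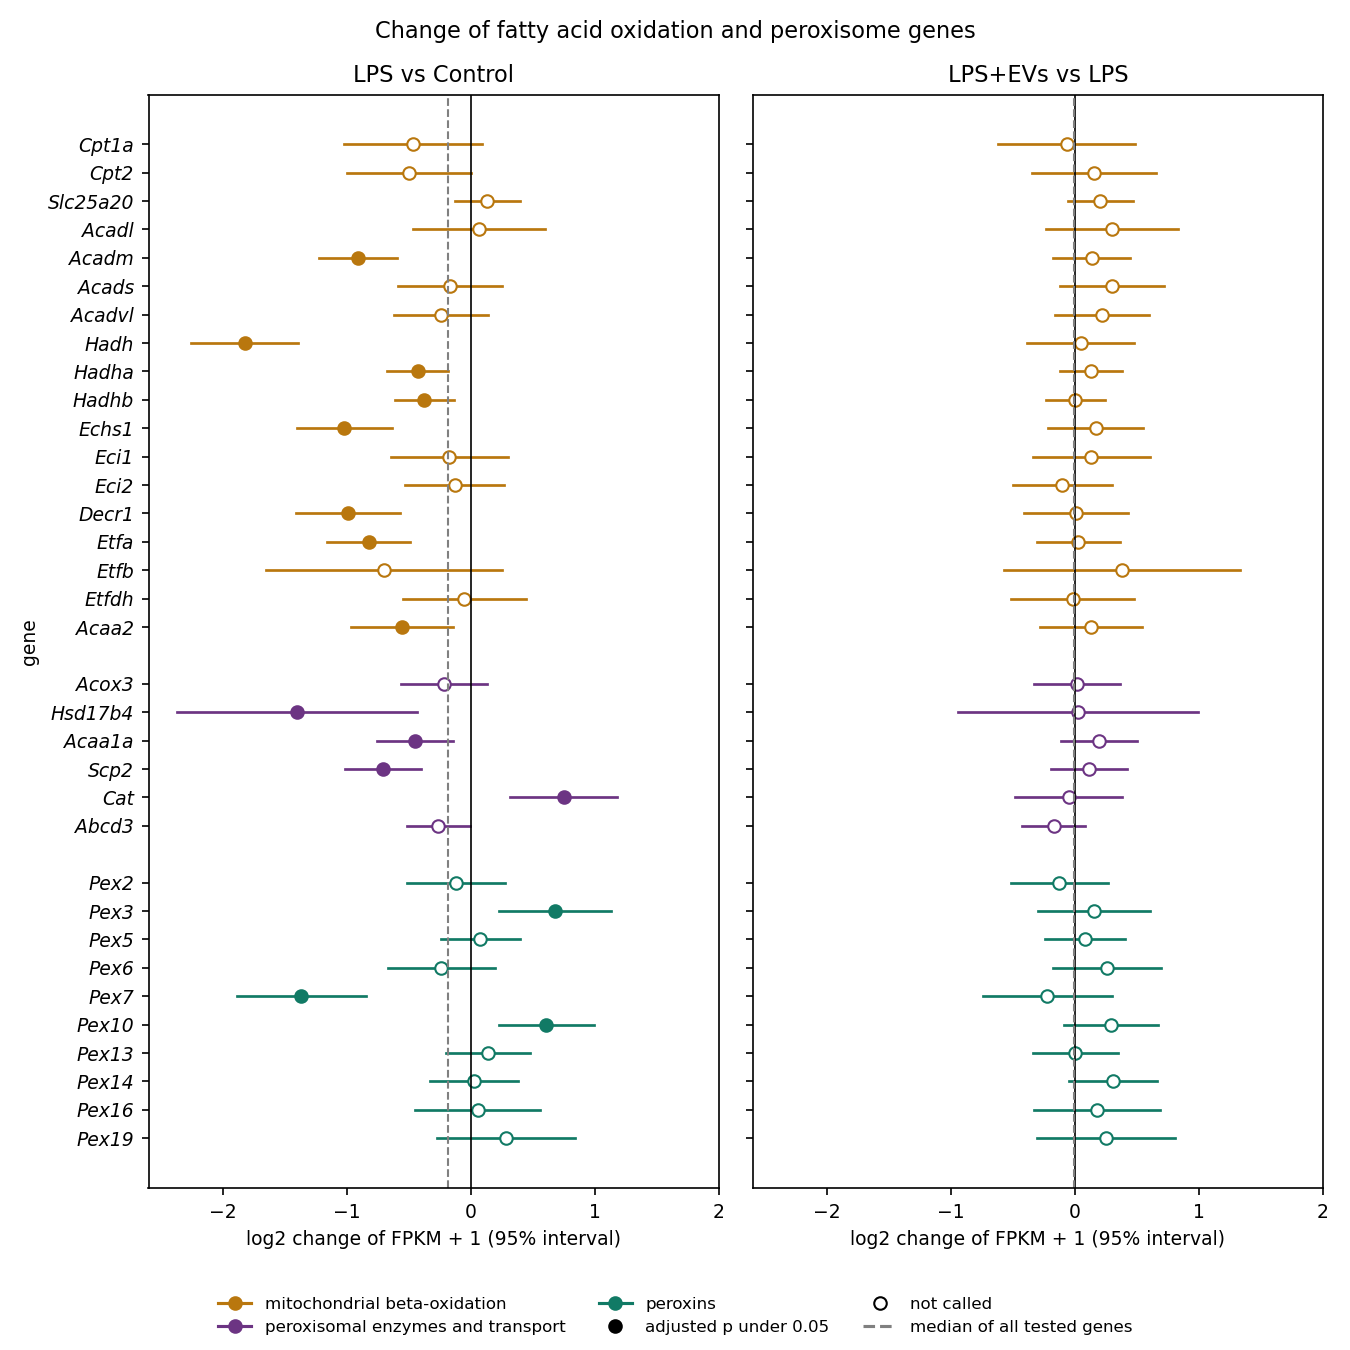
Log2 change of FPKM + 1 for the 34 tested genes (x axis), 1 gene per line, with the 95% interval of the limma fit, for LPS against Control (left) and LPS+EVs against LPS (right). Filled points are called at an adjusted p under 0.05, and the dashed line is the median of all tested genes. Filled points lie on both sides of 0 on the left, from -1.82 for Hadh to 0.75 for Cat, and none is filled on the right.

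The carnitine shuttle opens the mitochondrial pathway. Cpt1a, which attaches fatty acids to carnitine at the outer membrane and sets the rate of entry, stood at 12.2, 14.9 and 9.29 FPKM in the 3 Control libraries, 7.09, 6.84 and 11.9 in LPS and 7.16, 6.98 and 9.91 in LPS+EVs. LPS libraries 1 and 2 lay below all Control libraries and LPS library 3 among them, with a log2 change of -0.47 (SE 0.24, adjusted p = 0.157), so that Cpt1a was not called. Without LPS replicate 3 the change was -0.70 with an adjusted p of 0.037, and with libraries 1 and 3 alone -0.19 (adjusted p = 0.591). Cpt2, which returns the acyl group to coenzyme A inside, stood at 8.19, 8.83 and 7.70 FPKM in Control and 5.48, 7.64 and 4.02 in LPS. Its groups did not overlap, but the log2 change of -0.50 (SE 0.22, adjusted p = 0.103) did not pass the test. It passed once libraries were blocked by number (adjusted p = 0.0269), with libraries 1 and 3 alone (-0.65, adjusted p = 0.0187) and without LPS replicate 2 (-0.69, adjusted p = 0.0245), and was -0.30 (adjusted p = 0.275) without LPS replicate 3. Slc25a20, the translocase that carries acylcarnitines across the inner membrane, stood at 23.6, 21.4 and 20.6 FPKM in Control and 24.8, 26.2 and 21.4 in LPS. These groups overlapped, and the log2 change was 0.13 (SE 0.12, adjusted p = 0.381). Slc25a20 was called higher only where blocking by number was combined with median-of-ratios scaling (0.34, adjusted p = 0.0454).

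The acyl-CoA dehydrogenases open each round, and they differ in the chain length they prefer. The medium-chain enzyme Acadm stood at 36.1, 31.7 and 28.7 FPKM in Control and 14.2, 18.6 and 17.4 in LPS. Every LPS library lay below every Control library, a log2 change of -0.91 (SE 0.14, adjusted p = 0.00123). The other dehydrogenases were not called. The long-chain enzyme Acadl stood at 67.6, 62.5 and 65.8 FPKM in Control and at 55.8, 103 and 55.5 in LPS, where library 2 lay above and libraries 1 and 3 below all of Control. Its log2 change of 0.07 (SE 0.23, adjusted p = 0.838) became -0.23 (adjusted p = 0.239) without LPS replicate 2. The short-chain Acads (Control mean 20.8 ± 4.69 FPKM, LPS 18.3 ± 3.26, SD, n = 3) and the very-long-chain Acadvl (Control 22.3 ± 3.85, LPS 18.6 ± 2.61) overlapped between groups, with log2 changes of -0.17 and -0.24.

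The electrons of these dehydrogenases pass to the electron transfer flavoprotein, a dimer of Etfa and Etfb, and from it to the quinone reductase Etfdh. Etfa stood at 62.6, 52.3 and 45.2 FPKM in Control and 33.2, 26.2 and 29.4 in LPS, with no overlap, a log2 change of -0.82 (SE 0.15, adjusted p = 0.00275). Etfb, its partner, was spread widely within each group, at 94.5, 68.1 and 47.8 FPKM in Control and 51.6, 62.5 and 21.4 in LPS. In all 3 same-numbered pairs the LPS library was the lower, but the groups overlapped and the log2 change was -0.70 (SE 0.42, adjusted p = 0.211), or 0.0256 as adjusted p with the replicate block. The change of Etfb was -0.25 without LPS replicate 3, -0.46 without Control replicate 1 and -0.997 without LPS replicate 2, none of them called. Etfdh stood at a mean of 16.6 ± 4.09 FPKM in Control and 15.8 ± 2.39 in LPS (SD, n = 3), a log2 change of -0.05 (SE 0.22, adjusted p = 0.861).

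Hydration and the following dehydrogenation are carried out by Echs1 and Hadh for short and medium chains, and by the trifunctional protein of Hadha and Hadhb for long chains. Hadh showed the largest change of all 34 genes, with 35.3, 24.3 and 28.9 FPKM in Control, 8.28, 5.90 and 8.67 in LPS and 8.82, 6.56 and 8.17 in LPS+EVs. The lowest Control library was above the highest LPS library by a wide margin, and the log2 change was -1.82 (SE 0.19, adjusted p = 0.000186). Echs1 stood at 53.9, 41.2 and 43.7 FPKM in Control and 24.8, 22.0 and 20.0 in LPS, again with no overlap, a log2 change of -1.02 (SE 0.17, adjusted p = 0.0019). Both kept their calls in every alternative that was run.

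Hadha and Hadhb changed less. Hadha stood at 73.8, 80.2 and 77.2 FPKM in Control and 53.7, 64.5 and 53.4 in LPS, a log2 change of -0.43 (SE 0.11, adjusted p = 0.0142). Hadhb stood at 58.0, 61.1 and 57.8 FPKM in Control and 48.1, 44.3 and 43.4 in LPS, a log2 change of -0.37 (SE 0.10, adjusted p = 0.0206). Neither gene's groups overlapped, yet both calls were narrow. Under median-of-ratios scaling the log2 changes were -0.22 and -0.16 (adjusted p = 0.363 and 0.34). Hadha missed the threshold without LPS replicate 1 (adjusted p = 0.0529), and Hadhb without any 1 of Control replicates 1, 2 and 3 and LPS replicate 3 (0.0533 to 0.0615) and with libraries 1 and 3 alone (0.068). Acaa2, a thiolase that ends the round, stood at 39.9, 32.4 and 25.2 FPKM in Control and 24.2, 19.0 and 21.2 in LPS. Its log2 change was -0.56 (SE 0.18, adjusted p = 0.0369). Its groups did not overlap, and its call was lost without Control replicate 1 or 2, LPS replicate 2 or 3, or LPS+EVs replicate 1 or 3 (adjusted p 0.0501 to 0.126), with libraries 1 and 3 alone (0.113), with the 6 compared libraries alone (0.0596), with no filter (0.0648) and under median-of-ratios scaling (0.12).

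Hadha and Hadhb are encoded head to head, on opposite strands, with start sites 301 bases apart in the RefSeq annotation of build GRCr8. The promoter window of Hadha, from 250 bases before to 50 after its start, is shown because the genes share it in part: the 200 capitals also lie in the window of Hadhb. It spans chr6:31907551-31907850 on the plus strand.
Hadha: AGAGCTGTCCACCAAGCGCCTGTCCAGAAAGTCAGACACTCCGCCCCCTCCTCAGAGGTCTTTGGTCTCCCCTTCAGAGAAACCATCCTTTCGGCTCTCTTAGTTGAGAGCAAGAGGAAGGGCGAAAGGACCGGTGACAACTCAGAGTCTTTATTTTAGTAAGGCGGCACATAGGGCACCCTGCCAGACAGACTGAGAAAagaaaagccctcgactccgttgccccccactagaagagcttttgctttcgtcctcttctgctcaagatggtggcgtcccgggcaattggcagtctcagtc
The promoter window of Hadh, the gene with the largest fall, spans chr2:222504397-222504696 on the minus strand, with capitals for the motif matches described at the end.
Hadh: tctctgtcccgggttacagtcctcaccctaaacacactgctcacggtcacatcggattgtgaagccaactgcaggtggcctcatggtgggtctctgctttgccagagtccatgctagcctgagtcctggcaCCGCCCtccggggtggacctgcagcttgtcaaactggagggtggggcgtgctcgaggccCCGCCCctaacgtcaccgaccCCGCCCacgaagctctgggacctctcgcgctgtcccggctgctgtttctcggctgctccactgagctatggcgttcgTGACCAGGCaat

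Unsaturated fatty acids need further enzymes before they can enter the cycle. Decr1, the dienoyl-CoA reductase, stood at 24.7, 21.3 and 17.9 FPKM in Control and 11.4, 11.3 and 8.01 in LPS. All LPS libraries lay below Control, a log2 change of -0.99 (SE 0.19, adjusted p = 0.00359). The isomerases Eci1 and Eci2 were not called. Eci1 had a mean of 20.6 ± 1.27 FPKM in Control and 18.6 ± 4.99 in LPS, and Eci2, which also has a peroxisomal form, 14.9 ± 1.12 and 13.9 ± 3.75 (SD, n = 3). Their log2 changes of -0.18 and -0.13 turned to 0.03 and 0.07 under median-of-ratios scaling.

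Among the tested peroxisomal enzyme and transport genes, all estimates but that of catalase were below 0. Hsd17b4, the D-bifunctional enzyme that hydrates and oxidises very long and branched substrates, stood at 37.5, 24.7 and 35.1 FPKM in Control and 14.2, 5.81 and 17.7 in LPS. Library 2 was the lowest in each group, no LPS library reached the Control range, and the log2 change was -1.40 (SE 0.43, adjusted p = 0.0287). Its call was lost without Control replicate 1 or 3 or LPS replicate 2 (log2 changes -1.29, -1.33 and -0.97, adjusted p = 0.091, 0.0815 and 0.0599) and with no filter (0.0661), while the replicate block gave an adjusted p of 0.000545. Scp2, whose longer product is a peroxisomal thiolase and whose shorter product is a lipid transfer protein, stood at 50.3, 60.2 and 56.2 FPKM in Control and 33.3, 39.3 and 28.7 in LPS. The groups did not overlap, with a log2 change of -0.71 (SE 0.13, adjusted p = 0.00371), or -0.50 with an adjusted p of 0.0764 under median-of-ratios scaling. The values are per gene and do not separate the 2 products of Scp2.

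The thiolase Acaa1a stood at 26.0, 23.5 and 23.6 FPKM in Control and 17.5, 20.4 and 15.1 in LPS. All LPS libraries were below Control, and the log2 change was -0.45 (SE 0.13, adjusted p = 0.0272). Its call was lost without any 1 of Control replicates 1, 2 and 3 and LPS replicates 1 and 3 (adjusted p 0.056 to 0.0942) and under median-of-ratios scaling (-0.24, adjusted p = 0.331). Rats carry a near-identical copy, Acaa1b, and how shared reads were split between them is not known, so the value is uncertain. Abcd3, the half-transporter that brings fatty acids through the peroxisomal membrane, stood at 7.07, 6.59 and 6.67 FPKM in Control and 5.67, 5.06 and 5.72 in LPS. The groups did not overlap, but the log2 change of -0.26 (SE 0.11, adjusted p = 0.0888) did not pass. Acox3, the oxidase for branched acyl-CoA, had means of 21.2 ± 1.31 and 18.2 ± 2.71 FPKM (SD, n = 3), a log2 change of -0.22 (SE 0.15, adjusted p = 0.283).

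Catalase, which breaks down the hydrogen peroxide formed by the oxidases, went the other way. Cat stood at 53.9, 48.9 and 54.1 FPKM in Control, 91.1, 69.2 and 110.3 in LPS and 92.7, 68.9 and 97.6 in LPS+EVs. Every LPS library was above every Control library, library 2 by the least, with a log2 change of 0.75 (SE 0.19, adjusted p = 0.0137). It was called in every alternative of this comparison. Its promoter window, chr3:110329477-110329776 on the minus strand, is shown because it was the only one of the peroxisomal enzymes to hold the AGGTCA repeat described at the end.
Cat: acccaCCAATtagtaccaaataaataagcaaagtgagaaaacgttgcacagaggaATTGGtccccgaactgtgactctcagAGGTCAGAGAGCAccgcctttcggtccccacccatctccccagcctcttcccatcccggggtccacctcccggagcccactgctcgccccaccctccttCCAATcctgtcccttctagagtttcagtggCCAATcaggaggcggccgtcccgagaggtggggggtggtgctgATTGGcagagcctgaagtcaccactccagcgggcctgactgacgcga

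Peroxins were grouped by what they do. Pex3, Pex16 and Pex19 insert membrane proteins, and the membrane anchor Pex3 stood at 6.51, 7.49 and 7.48 FPKM in Control, 11.5, 16.1 and 9.42 in LPS and 13.6, 16.1 and 11.3 in LPS+EVs. All LPS libraries were above Control, library 3 by the least, a log2 change of 0.68 (SE 0.20, adjusted p = 0.025). The call on Pex3 was lost without any 1 of Control replicates 1, 2 and 3 and LPS replicates 1 and 2 (log2 changes 0.49 to 0.71, adjusted p 0.0518 to 0.0845). Its partners were not called. Pex19, the chaperone of membrane proteins, stood at 17.8, 14.2 and 16.0 FPKM in Control and 17.6, 29.8 and 14.3 in LPS, with library 2 alone above Control, and its log2 change of 0.28 became -0.01 without LPS replicate 2. Pex16 had means of 13.0 ± 2.15 and 13.5 ± 2.09 FPKM (SD, n = 3), a log2 change of 0.05.

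The receptors carry enzymes from the cytosol. Pex7, the receptor for the amino-terminal signal found on thiolases such as Acaa1a, stood at 4.78, 6.62 and 6.16 FPKM in Control, 1.44, 1.22 and 2.40 in LPS and 1.69, 0.743 and 1.46 in LPS+EVs. Its Control and LPS libraries were far apart, with a log2 change of -1.37 (SE 0.23, adjusted p = 0.002), and the call was kept in every alternative. Pex5, the receptor for the carboxy-terminal signal that most enzymes of the organelle bear, stood at 12.7, 13.4 and 12.3 FPKM in Control and 13.3, 16.2 and 11.6 in LPS. The Pex5 groups overlapped, and the log2 change was 0.08 (SE 0.14, adjusted p = 0.692). The log2 changes of Pex7 and Pex5 are those of each gene against its own Control, and the difference between them was not tested. The docking proteins Pex13 (2.87, 2.61 and 2.96 FPKM in Control, 2.90, 3.55 and 3.14 in LPS) and Pex14 (means 5.45 ± 0.613 and 5.54 ± 0.101 FPKM, SD, n = 3) had log2 changes of 0.14 and 0.03.

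Pex2 and Pex10 belong to the membrane ubiquitin ligase that marks the receptors for recycling, and Pex6 to the ATPase that pulls them back out. Pex10 stood at 2.24, 1.52 and 1.98 FPKM in Control and 4.01, 3.70 and 2.67 in LPS. No LPS library overlapped with Control, and the log2 change was 0.61 (SE 0.17, adjusted p = 0.0191). Pex10 is a gene of few reads (85 to 273 per library), and its call was lost without Control replicate 2 or 3 or LPS replicate 1 (0.51, 0.63 and 0.52, adjusted p = 0.0676, 0.0504 and 0.0676) and with libraries 1 and 3 alone (0.46, adjusted p = 0.0934). Pex2 and Pex6 had log2 changes of -0.12 and -0.24, and their groups overlapped (Pex2 means 3.74 ± 0.372 and 3.40 ± 0.761 FPKM, Pex6 11.4 ± 1.93 and 9.62 ± 2.26, SD, n = 3).

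The windows of Pex3, which rose, and Pex7, which fell, are shown as the peroxins called in opposite directions. That of Pex3 spans chr1:9774430-9774729 on the minus strand and all of its 300 bases also lie in the window of Adat2, a tRNA deaminase gene on the plus strand whose start is 201 bases away.
Pex3: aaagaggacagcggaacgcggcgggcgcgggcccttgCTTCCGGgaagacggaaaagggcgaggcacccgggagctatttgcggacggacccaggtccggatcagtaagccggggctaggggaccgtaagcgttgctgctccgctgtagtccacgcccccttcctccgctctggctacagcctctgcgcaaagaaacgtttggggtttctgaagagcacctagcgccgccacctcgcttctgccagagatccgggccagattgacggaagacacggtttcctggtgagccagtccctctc
Pex7 (chr1:16466255-16466554, minus strand): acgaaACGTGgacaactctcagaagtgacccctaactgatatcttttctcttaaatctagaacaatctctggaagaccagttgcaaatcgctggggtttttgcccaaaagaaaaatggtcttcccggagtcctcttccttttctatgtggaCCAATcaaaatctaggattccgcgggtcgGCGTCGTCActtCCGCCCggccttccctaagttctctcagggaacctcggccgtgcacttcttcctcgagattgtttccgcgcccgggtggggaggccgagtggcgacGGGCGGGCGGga
Adat2 stood at 2.63, 2.33 and 1.91 FPKM in Control and 1.87, 1.71 and 1.27 in LPS. It lay lower in every LPS library, where Pex3 lay higher, but the log2 change of Adat2 was -0.33 (SE 0.17, adjusted p = 0.139) and was called only with the replicate block (0.0439). Pex13 likewise shares 257 bases with the window of Pus10, 158 bases away on the opposite strand, and neither gene was called (Pus10 log2 change -0.08 (SE 0.13, adjusted p = 0.648)).

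**Figure D2:**
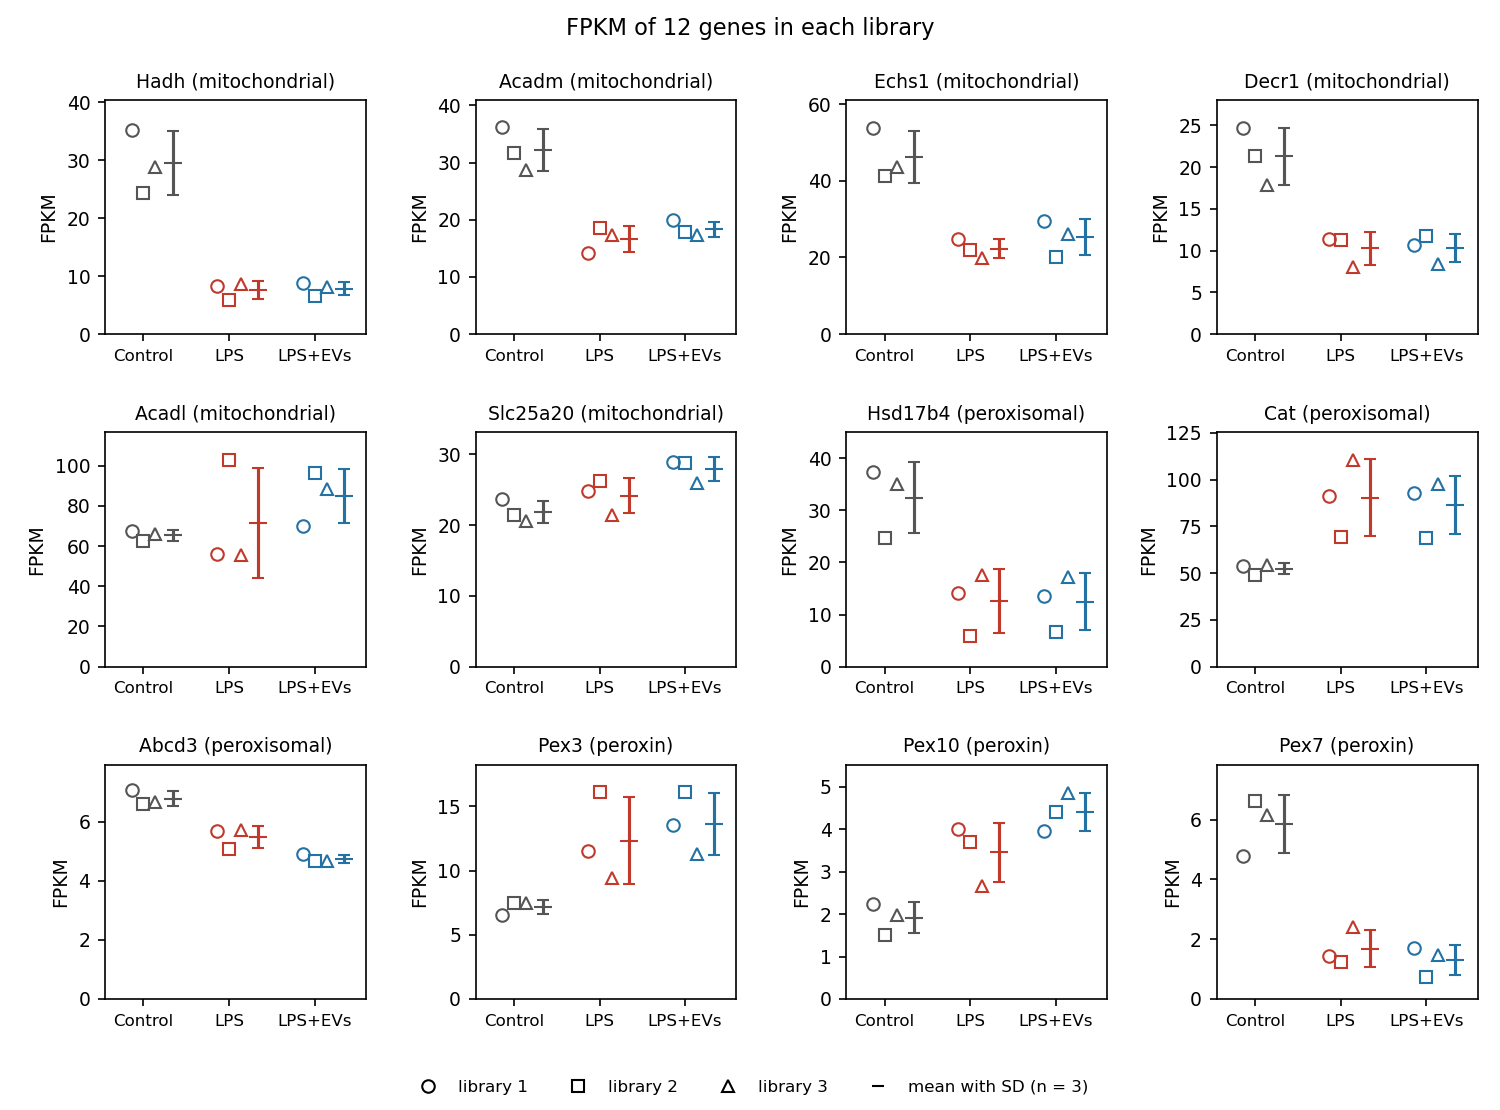
FPKM (y axis, from 0) of 12 genes in each of the 9 libraries, by group, with circles, squares and triangles for libraries 1, 2 and 3 and bars for the mean with SD (n = 3). Hadh, Acadm, Echs1, Decr1, Hsd17b4 and Pex7 lay lower in all LPS and LPS+EVs libraries than in Control, and Cat, Pex3 and Pex10 lay higher.

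Mitochondrial and peroxisomal genes were then set side by side in each library. For each list, the median over its genes of log2(FPKM + 1) less the Control mean was taken. For the mitochondrial genes this median was 0.14, -0.02 and -0.09 in Control libraries 1, 2 and 3, against -0.38, -0.34 and -0.49 in LPS and -0.31, -0.33 and -0.40 in LPS+EVs. The peroxisomal enzymes lay close to them, at -0.34, -0.41 and -0.43 in LPS and -0.41, -0.45 and -0.31 in LPS+EVs. Both lists lay below all genes, whose medians were -0.15, -0.32 and -0.12 in LPS, although by little in library 2.

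The peroxins did not share that level. Their median was 0.07, 0.15 and 0.0044 in LPS and 0.17, 0.20 and 0.29 in LPS+EVs. The mitochondrial median less that of the peroxins was 0.13, -0.08 and -0.11 in Control, -0.45, -0.50 and -0.49 in LPS and -0.48, -0.54 and -0.69 in LPS+EVs, so every treated library lay below every Control library in this difference. Against the peroxisomal enzymes the same difference was 0.09, 0.02 and -0.09 in Control, -0.05, 0.06 and -0.05 in LPS and 0.09, 0.12 and -0.09 in LPS+EVs, with all groups overlapping. These differences are descriptions over genes chosen with results known, and no test was made of them.

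In summed level per length, the mitochondrial genes held 561 to 698 FPKM in Control, 401 to 504 in LPS and 484 to 522 in LPS+EVs, with no Control library as low as any treated library. The 6 peroxisomal enzymes summed to 187 to 196 FPKM in Control and 155 to 197 in LPS, a sum in which the rise of Cat stands beside the falls of Hsd17b4 and Scp2. The 10 peroxins together held 76.1 to 83.3 FPKM in Control and 73.4 to 101.9 in LPS. Taking all peroxisomal members as 1 list, 3 of 16 rose and 4 fell (18.8% and 25.0%), near the 12.3% and 28.7% of all genes.

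**Figure D3:**
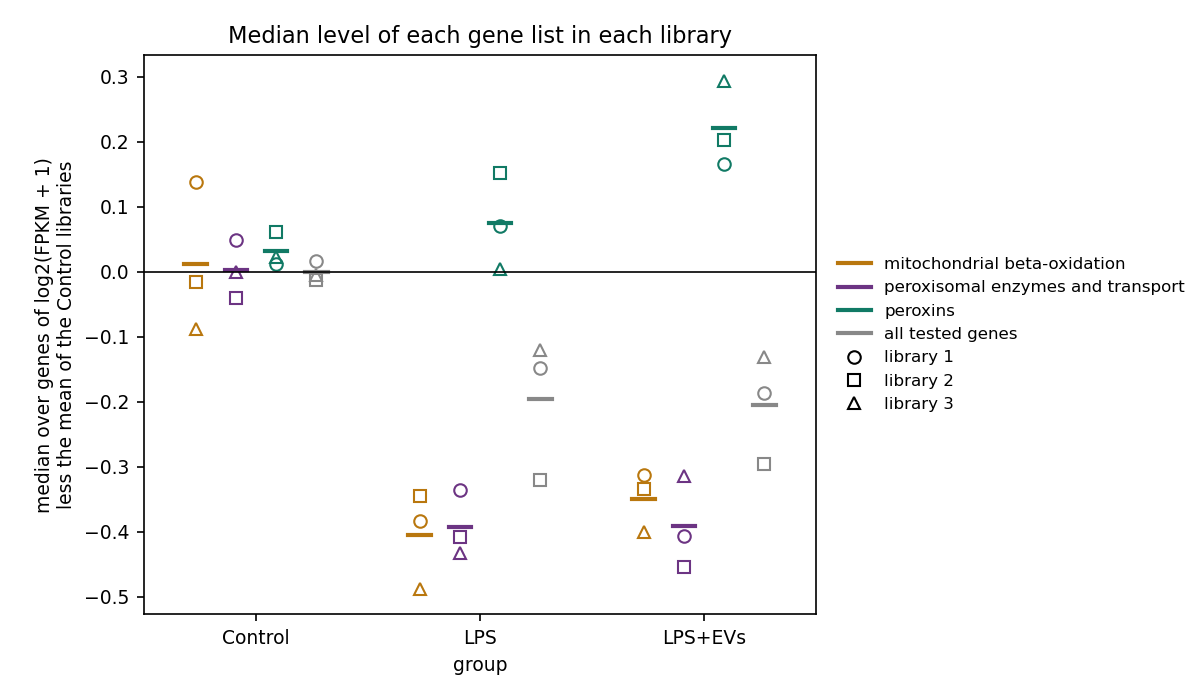
Median over the genes of each list of log2(FPKM + 1) less the mean of the Control libraries (y axis), for each library of the 3 groups (x axis), with bars for the mean of 3 libraries. The mitochondrial and peroxisomal enzyme medians lie between -0.31 and -0.49 in all treated libraries, while the peroxin medians lie between 0.0044 and 0.29.

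Within each list the genes did not move alike. The heat map of all tested genes shows Slc25a20, Acadl, Acads and Etfdh near or above their Control level in some treated libraries in which Hadh, Decr1 and Etfa were low. Library 2 of the LPS group stood apart from the other two in Acadl, Pex19 and Hsd17b4, and library 3 in Cpt1a and Etfb.

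**Figure D4:**
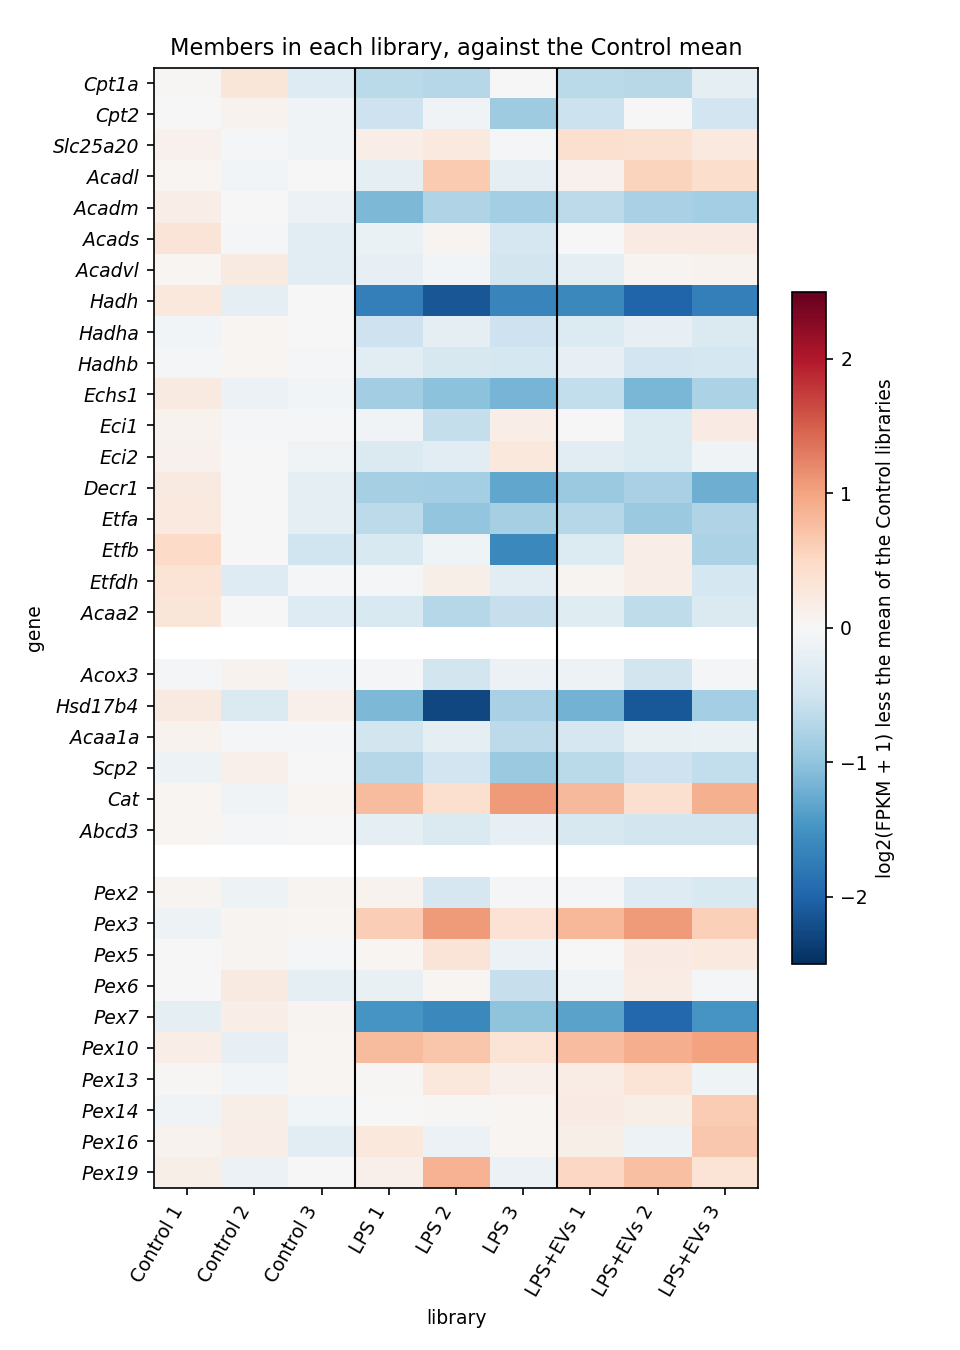
Log2(FPKM + 1) less the mean of the Control libraries (colour, limited at -2.5 and 2.5) for the 34 tested genes (rows, in 3 blocks: mitochondrial, peroxisomal enzymes, peroxins) in the 9 libraries (columns). Values run from -2.27 for Hsd17b4 in LPS library 2 to 1.07 for Pex3 in LPS library 2.

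The comparison of LPS+EVs with LPS asks what vesicles added to the endotoxin. No gene of the 34 was called in either direction, and 0.0% of all genes were. Limma gave 295 genes an unadjusted p under 0.05 and none of them was among the 34, and limma-voom on the recovered reads called 0 genes with 277 at an unadjusted p under 0.05. The count of 295 depended on single libraries, with 80 without LPS+EVs replicate 3, 81 without LPS replicate 3 and 1886 without LPS replicate 2, and it was 600 with libraries blocked by number and 1556 with libraries 1 and 3 alone. Estimates ran from -0.22 for Pex7 to 0.38 for Etfb. The 95% intervals were wide enough to hold sizeable changes either way. Examples are -0.39 to 0.48 for Hadh, -0.48 to 0.38 for Cat and -0.57 to 1.33 for Etfb. These intervals come from the fit without the replicate block, so they also hold the spread between library numbers. Changes within same-numbered pairs were 0.08, 0.13 and -0.08 for Hadh and 0.03, -0.0064 and -0.17 for Cat. For Etfb they were 0.04, 0.27 and 0.83. Intervals with the block are not given here.

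The mitochondrial genes had a median log2 change of 0.13, beside -0.0072 over all genes, with 15 of 18 estimates above 0. That lean was not particular to them. Estimates were above 0 for 8 of 10 peroxins, 13 of 13 macrophage and monocyte markers and 22 of 28 genes of a list of regulators and PPAR targets. They were above 0 for 5 of 12 other peroxins and division genes. In 6 of the 18 mitochondrial genes all same-numbered LPS+EVs libraries were above their LPS libraries and in none were all below, beside 16.7% and 16.8% of all genes. Slc25a20 is an example, at 24.8, 26.2 and 21.4 FPKM in LPS and 29.0, 28.9 and 25.9 in LPS+EVs, a log2 change of 0.20 (SE 0.12, adjusted p = 0.999). Its LPS+EVs libraries lay in or above the upper part of the LPS range. Acadl, at 55.8, 103 and 55.5 and 70.2, 96.4 and 88.4 FPKM, had a log2 change of 0.30 (SE 0.23, adjusted p = 0.999), or 0.59 (adjusted p = 0.238) without LPS replicate 2, 0.15 without LPS replicate 1 or 3, and 0.49 (adjusted p = 0.286) with libraries 1 and 3 alone. Acadl and Pex19 reached an unadjusted p under 0.05 with libraries 1 and 3 alone and without LPS replicate 2, but no adjusted p under 0.05. The 5 mitochondrial genes with the largest falls after LPS overlapped between LPS and LPS+EVs, with Hadh at 0.05, Echs1 at 0.17, Decr1 at 0.0062, Acadm at 0.13 and Etfa at 0.03 on the log2 scale.

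The peroxisomal enzymes had a median of 0.02 and the peroxins one of 0.16. Abcd3 was lower in all 3 pairs, from 5.67, 5.06 and 5.72 FPKM in LPS to 4.90, 4.67 and 4.67 in LPS+EVs. Among all genes 16.8% were lower in all 3 pairs, and the log2 change of Abcd3 was -0.17 (SE 0.11, adjusted p = 0.999). Pex14 was higher in all 3 pairs, as were 16.7% of all genes, from 5.43, 5.57 and 5.63 FPKM to 6.36, 6.15 and 9.02. Its log2 change was 0.30 (SE 0.16, adjusted p = 0.999), or 0.15 without LPS+EVs replicate 3. Cat at -0.05 and Hsd17b4 at 0.02 lay close to 0. The interval of Hsd17b4 was -0.95 to 0.99 in the fit without the replicate block. Its same-numbered pairs changed by -0.07, 0.16 and -0.03 on the log2 scale. The estimate was -0.41 without LPS replicate 2, a fit that kept LPS+EVs library 2, the lowest of its group at 6.61 FPKM.

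LPS+EVs against Control shares the Control libraries with the comparison above and the LPS+EVs libraries with the last, so it is no independent test, and its values are set beside theirs. Among all genes 13.5% rose and 30.8% fell. Mitochondrial genes gave 6 falls (Hadh -1.78, Decr1 -0.98, Echs1 -0.85, Etfa -0.80, Acadm -0.78 and Hadhb -0.37) and 1 rise. These are 33.3% and 5.56% of the list, the share that fell lying near the 30.8% of all genes. The rise was Slc25a20, at 23.6, 21.4 and 20.6 FPKM in Control and 29.0, 28.9 and 25.9 in LPS+EVs with no overlap, a log2 change of 0.34 (SE 0.12, adjusted p = 0.0418). That call was lost without any 1 of Control replicates 1, 2 and 3, LPS replicate 1 and LPS+EVs replicates 1 and 2 (adjusted p 0.0566 to 0.13) and with libraries 1 and 3 alone (0.114). Hadha (-0.30, adjusted p = 0.0523) and Acaa2 (-0.43, adjusted p = 0.0825) did not pass here, although they did with the replicate block (0.0283 and 0.0335). Hadha also passed without LPS replicate 2 (0.0269), with the 6 compared libraries alone (0.0458) and with libraries 1 and 3 alone (0.0408), and Acaa2 without Control replicate 3 (-0.60, adjusted p = 0.0339). Without LPS replicate 2 Acadl was called higher (0.36, adjusted p = 0.0426). Hadhb lost its call without any 1 of Control replicates 1, 2 and 3 and LPS+EVs replicates 2 and 3 (0.0506 to 0.0699), with libraries 1 and 3 alone (0.0895) and under median-of-ratios scaling (-0.15, adjusted p = 0.371).

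Among peroxisomal genes Cat rose (0.70), and Hsd17b4 (-1.38), Scp2 (-0.60) and Abcd3 fell. Abcd3 went from 7.07, 6.59 and 6.67 FPKM in Control to 4.90, 4.67 and 4.67 in LPS+EVs, the lowest level of its groups, a log2 change of -0.44 (SE 0.11, adjusted p = 0.0131). It was lost without Control replicate 1 (-0.41, adjusted p = 0.0552) and under median-of-ratios scaling (-0.24, adjusted p = 0.122). The call on Hsd17b4 was lost without Control replicate 1 or 3 or LPS+EVs replicate 1 or 2 (adjusted p 0.0539 to 0.0882) and with no filter (0.0646), that on Cat without Control replicate 2 or LPS+EVs replicate 1 or 3 (0.0531 to 0.0574), and that on Scp2 under median-of-ratios scaling (-0.38, adjusted p = 0.157). Pex3 (0.83) and Pex10 (0.90) rose and Pex7 fell (-1.59), all in every alternative. Pex14 (0.33) and Pex19 (0.53) were above all Control libraries without being called. Pex14 was called under median-of-ratios scaling (0.52, adjusted p = 0.0257), and Pex19 without LPS replicate 2 (adjusted p = 0.0173) and with the 6 compared libraries alone (0.0222).

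Other genes of the same pathways were taken from lists of related genes. Of 31 tested genes of fatty acid activation and mitochondrial oxidation, 9 fell and 1 rose after LPS (29.0% and 3.23%), with a median of -0.29, beside 28.7% and 12.3% of all genes and a median of -0.19. The share that fell is that of all genes. With libraries blocked by number 11 fell and 2 rose, where 35.5% of all genes fell and 17.2% rose. Acat1, the mitochondrial acetoacetyl-CoA thiolase, was at 32.3 ± 4.84 FPKM in Control and 7.85 ± 1.16 in LPS (SD, n = 3), a log2 change of -1.91 (SE 0.15, adjusted p = 3.9e-05). Acsl3, a long-chain acyl-CoA synthetase, fell by 1.72, Hsd17b10, a mitochondrial hydroxyacyl-CoA dehydrogenase, by 1.21 and Acad9, an acyl-CoA dehydrogenase that also assembles complex I, by 1.19 on the log2 scale.

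Of 31 other peroxisomal enzymes and transporters, 10 fell and 1 rose (32.3% and 3.23%), the share that fell lying near the 28.7% of all genes. With libraries blocked by number 16 fell and 3 rose, where 3950 of all 11141 genes fell and 1912 rose. Among the falls were Abcd2, a fatty acid transporter (3.31 ± 1.98 FPKM in Control, 0.144 ± 0.129 in LPS, log2 change -1.83), Paox, a polyamine oxidase (-1.34), Far1, which makes the fatty alcohols of ether lipids (-1.13), and Mvk, mevalonate kinase (-0.76). Abcd2 passed the filter only through its Control libraries, with at most 0.287 FPKM in LPS and 0.194 in LPS+EVs. Its place among the tested genes therefore depended on the group where it is high. Of 12 other peroxins and division genes, 3 fell and none rose (25.0% and 0.0%, beside 28.7% and 12.3% of all genes). Among them were Trim37, a ubiquitin ligase (-0.68), and Mff, the receptor for the fission GTPase (-0.39, lost without Control replicate 1 or 3 or LPS replicate 1 or 3 with adjusted p 0.0864 to 0.119, with the 6 compared libraries alone at 0.0634, and under median-of-ratios scaling at 0.389). Pex26, the membrane anchor of the Pex6 complex, was at 0.42 (adjusted p = 0.154), and was called higher without LPS replicate 2 (0.65, adjusted p = 0.0198), with libraries 1 and 3 alone (0.71, 0.00947) and under median-of-ratios scaling (0.60, 0.0224).

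PPAR receptors are nuclear receptors known to drive many fatty acid oxidation and peroxisome genes. A mixed list of general metabolic regulators, the PPAR receptors and their targets had 28 tested genes. Of these, 6 rose and 7 fell (21.4% and 25.0%, beside 12.3% and 28.7% of all genes), counts that are no measure of PPAR activity. Hilpda, a lipid droplet protein that inhibits lipolysis, rose from 15.2 ± 0.965 to 71.7 ± 2.76 FPKM (SD, n = 3), a log2 change of 2.17 (SE 0.09, adjusted p = 2.07e-06). Ncor1, a corepressor, rose by 0.49, while Lpl, the lipase that frees fatty acids from lipoproteins, fell by 2.10 and the uncoupling protein Ucp2 fell by 1.95. Ppara reached at most 0.0979 FPKM in any library and was not tested. Pparg fell from 9.76 ± 3.33 to 2.37 ± 1.80 FPKM, a log2 change of -1.77 (SE 0.40, adjusted p = 0.00864). Ppard rose from 7.08 ± 0.793 to 9.87 ± 0.330 FPKM, a log2 change of 0.43 (SE 0.12, adjusted p = 0.0232), a call lost without Control replicate 1 or 3 or LPS replicate 1 or 3 (adjusted p 0.0505 to 0.0868).

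With LPS+EVs against LPS, limma called no gene of these lists either, and every adjusted p of the named genes was 0.999. The named genes with the smallest p were Mcee, a methylmalonyl-CoA epimerase (0.49), Acsl1 (-0.46), Ech1 (0.26) and Acsl4 (-0.38) in fatty acid activation and oxidation, and Pmvk (0.34), Pxmp4 (0.51), Far1 (-0.36) and Gstk1 (0.38) in peroxisomes. They were Dnm1l (-0.39), Usp30 (0.23) and Fis1 (0.09) among peroxins and division genes, and Sirt1 (-0.65), Ucp2 (0.34), Ppargc1b (0.48) and Sirt3 (0.30) among regulators, all as log2 changes. Pparg was at 0.38 (0.0041 without LPS replicate 3 and 0.78 without LPS replicate 2) and Ppard at 0.04.

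Promoter windows of 300 bases from RefSeq (GRCr8) were found for 30 of the 35 genes, and none for Acadl, Decr1, Acaa2, Pex2 and Pex6. Each was searched on both strands for fixed motifs, and the share of all 33469 windows of the table that hold the motif is given beside each count. These windows outnumber the 20442 genes of the expression table and were not limited to genes expressed here. The shares are thus no matched background for the members, of which 34 passed the filter. GGGCGG, the box read by Sp1, was in 24 of 30 (33.1% of all windows), in 12 of 15 mitochondrial, 6 of 7 peroxisomal enzyme and 6 of 8 peroxin windows, called genes and others alike. CCAAT was in 10 of 30 (37.5% of all). CCGGAAG, an ETS site, was in 4 (8.75%), TGACGTCA, the cyclic AMP element, in 3 (1.83%), TGACNNNGC, the antioxidant element, in 2 (12.1%), ACGTG, the core of the hypoxia element, in 5 (19.3%), and TCAAGGTCA, an ERR site, in none (0.433%).

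A direct repeat of AGGTCA with 1 base between, the form that PPAR receptors read, was searched with at most 2 mismatches. It was in 5 of 30 windows, those of Acadvl, Echs1, Etfa, Slc25a20 and Cat, beside 3.77% of all windows, and 4 of the 5 were mitochondrial genes. Echs1 and Etfa fell after LPS, Cat rose and the other two were not called, so windows with the repeat belonged to genes called in both directions. In the Cat window the repeat begins 169 bases before the start and is the longest run of capitals, and the shorter runs are CCAAT or its reverse complement. In the Hadh window the capitals are GGGCGG boxes, as their reverse complement, and a match to the antioxidant element. In the Pex3 window they are CCGGAAG as its reverse complement, and the Pex7 window holds matches to the hypoxia core, to the antioxidant element, to CCAAT and to the Sp1 box, some of which overlap. A match is a run of letters and not a measured binding site.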

How the data were processed

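RNA sequencing measured 9 libraries in 3 groups of 3. Per the submitters' processing notes, fastp, HISAT2, HTSeq and R 3.2.0 were used with the rat build mRatBN7.2, and the test, the settings and the strand handling are not given in the sources used here. The deposited table holds values for 20442 genes, which the steps between its values show to be FPKM that the authors made from whole reads. No further scaling by the authors is given in the sources used here. Whole reads (to within 0.002) could be recovered from them for 18833 of 18833 genes above 0 in at least 2 libraries (100%).

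The filter asked for 1 FPKM or more in 3 or more libraries and kept 11141 genes. On log2(FPKM + 1), a linear model with a mean for each group was fitted to the 9 libraries in limma 3.58.1 (R 4.3.3), with a variance trend. P-values are two-sided and adjusted by Benjamini-Hochberg over all tested genes within each comparison, with a threshold of 0.05. The fitting script was tested on simulated data. Replicate numbers in the labels were checked for pairing: deviations from group means correlated at 0.28 to 0.86 in the 9 pairs of libraries with the same number, and at -0.74 to 0.43 in the 18 with different numbers, so the numbers were taken to pair the cultures and the blocked value is given where it changes a call. The main counts, SEs and intervals, and the fits with single libraries left out, come from the model without the block. They therefore also hold the spread between library numbers.

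Members and gene lists were chosen with earlier results of these data known, so lists are described by counts and medians and not tested. All members are named, with up to 4 genes of smallest adjusted p from each of 4 related lists and Ppara, Pparg and Ppard. Some genes that this rule names are not reported here. Of the genes that share part or all of a promoter window with a member, Adat2 and Pus10 were added after their values were seen. C2h4orf46, which shares bases with the window of Etfdh, and LOC108350099, with that of Abcd3, were not followed. Alternatives were another scaling, filters, a pseudocount of 0.1, the 6 compared libraries, the replicate block, libraries 1 and 3 alone and each library left out. Limma-voom on the recovered reads, chosen after seeing the data, called 1338 genes higher and 3173 lower in LPS against Control and 1478 and 3409 in LPS+EVs against Control. Promoter windows came from RefSeq (GRCr8), whose build differs from that of the counts. Values were summarised in Python 3.11.15 (numpy 2.4.6, pandas 2.3.3) and drawn with matplotlib 3.10.9.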

Additional observations from a re-analysis of the deposited data

How the results depend on the processing

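No called member in the 3 comparisons, and no called named gene in LPS against Control, changed direction in any alternative. Other called genes were not checked for direction. Of 2520 recomputed log2 changes (140 results under 18 alternatives), 2331 kept direction and call. With the same replicate number as a block, limma called 1912 genes higher and 3950 lower in LPS against Control, 0 in LPS+EVs against LPS and 1984 and 4162 in LPS+EVs against Control, and among named genes the block changed 1 call besides those given beside the results, that of Mff in LPS+EVs against Control (adjusted p = 0.0531, with the block 0.0489). In the related lists the block turned 3 calls in fatty acid activation and oxidation, 8 in other peroxisomal enzymes and 4 in regulators in LPS against Control, and 3, 5 and 3 in LPS+EVs against Control with 1 in peroxins and division genes (Mff), all of them gained. With median-of-ratios scaling added to the block, all genes called higher numbered 2685 in LPS against Control and 2809 in LPS+EVs against Control, mitochondrial genes called higher in the former were 1 and peroxins called higher in the latter 4. Median-of-ratios scaling alone left 5 mitochondrial genes and 1 peroxisomal enzyme lower in LPS against Control, and 1 peroxisomal enzyme lower in LPS+EVs against Control. Libraries 1 and 3 alone left 1 peroxin higher in LPS against Control and 0 mitochondrial genes higher in LPS+EVs against Control. Leaving out single libraries, the counts ran from 1 to 3 (peroxisomal enzymes lower) and 0 to 2 (peroxins higher) in LPS against Control, and from 0 to 2 (mitochondrial genes higher), 0 to 1 (peroxisomal enzymes higher) and 1 to 3 (lower) in LPS+EVs against Control. In LPS+EVs against LPS the count over all genes ran from 0 to 1 gene higher, the 1 without LPS replicate 2. The causes of these differences were not tested. In LPS against Control the direction turned under median-of-ratios scaling with or without the replicate block for Acads (0.0366), Eci1 (0.0284), Eci2 (0.073), Etfdh (0.15), Pex2 (0.0455), Pus10 (0.0862). It turned with libraries 1 and 3 alone for Acadl (-0.26), Eci1 (0.0133), Pex5 (-0.0119), Pex19 (-0.084). Leaving out single libraries it turned for Acadl (-0.23 to 0.22), Eci1 (-0.35 to 0.0341), Etfdh (-0.21 to 0.12), Pex2 (-0.22 to 0.0271), Pex5 (-0.0439 to 0.18), Pex14 (-0.0168 to 0.10), Pex16 (-0.0777 to 0.16), Pex19 (-0.0059 to 0.50). In LPS+EVs against LPS the direction turned with libraries 1 and 3 alone for Decr1 (-0.0127), Hsd17b4 (-0.0485), Pex13 (-0.0416), Ppard (-0.0227). It turned with a pseudocount of 0.1 for Pex13 (-0.0016). Leaving out single libraries it turned for Cpt1a (-0.21 to 0.16), Cpt2 (-0.0394 to 0.35), Hadh (-0.11 to 0.15), Hadhb (-0.0787 to 0.051), Eci1 (-0.0771 to 0.30), Eci2 (-0.22 to 0.0944), Decr1 (-0.15 to 0.13), Etfa (-0.0571 to 0.11), Etfb (-0.0766 to 0.67), Etfdh (-0.13 to 0.16), Acox3 (-0.10 to 0.14), Hsd17b4 (-0.41 to 0.39), Cat (-0.23 to 0.10), Pex3 (-0.0093 to 0.35), Pex5 (-0.0272 to 0.20), Pex13 (-0.10 to 0.12), Pex16 (-0.0453 to 0.36), Pus10 (-0.13 to 0.0158). In LPS+EVs against Control the direction turned under median-of-ratios scaling with or without the replicate block for Acadvl (0.19), Eci1 (0.17), Etfdh (0.14), Acox3 (0.0144). It turned with libraries 1 and 3 alone for Acadvl (0.0372), Eci1 (0.083), Pex13 (-0.0023). Leaving out single libraries it turned for Acads (-0.0075 to 0.29), Acadvl (-0.16 to 0.0865), Eci1 (-0.16 to 0.10), Etfdh (-0.23 to 0.11), Pex6 (-0.0944 to 0.13). Genes whose direction turned were not called in the values reported, and the ranges are log2 changes over all libraries left out singly. The targeting signals of the proteins, planned as a sequence feature, were not run. Depth limits Ehhadh (5 to 41 reads per library), Pex7 (38 to 340) and Pex10 (85 to 273).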
